A study of Homo sapiens with 4 samples.

Results

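ATF3 binding was examined around CHAC1, TRIB3, SESN2, DDIT4, PPP1R15A and GDF15, 6 effector genes of the integrated stress response. Peaks of the 4 deposited lists that shared at least 1 bp were merged into regions, and every region that touched 1 of these genes or the 20 kb on either side of it was taken, by gene positions in hg19. This gave 29 of the 44826 regions on chromosomes 1 to 22 and X: 3 at CHAC1, 8 at TRIB3, 4 at SESN2, 5 at DDIT4, 4 at PPP1R15A and 5 at GDF15. The signal came from CUT&Tag, in which an antibody, here against ATF3, brings a transposase to chromatin that cuts and tags the DNA nearby. The cells were SW480, an established colorectal cancer line, kept for 24 h in cystine-restricted medium (2 libraries) or in full medium (2 libraries), with about 100000 cells per library. The labels number the libraries of a medium without saying whether they came from separate cultures, so p-values speak of library-to-library spread only, part or all of it perhaps technical. A control library with no ATF3 antibody was not used here, and peak lists hold no expression values, so neither the identity of the cells nor the activity of the genes was checked.

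The integrated stress response starts when kinases that sense amino acid shortage, unfolded protein, viral RNA or haem deficiency phosphorylate the initiation factor eIF2. General translation then slows, while the transcription factor ATF4 is translated more and raises a set of genes, ATF3 among them. ATF3 is a bZIP factor that binds cyclic AMP response elements, AP-1 sites and composite C/EBP-ATF response elements, the last of which ATF4 also binds. Cystine is the oxidised form in which most cultured cells import cysteine, the limiting amino acid for glutathione. Among the 6 genes, CHAC1 encodes an enzyme that breaks down glutathione, TRIB3 a pseudokinase that restrains ATF4 and AKT, SESN2 and DDIT4 inhibitors of mTORC1 signalling, PPP1R15A the subunit that brings a phosphatase to eIF2, and GDF15 a secreted stress cytokine.

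The sequence before a gene start shows which of the letters that such factors bind lie just before that start, whether or not a peak has its summit there. All 6 genes were matched by symbol in a RefSeq table of promoters on build GRCh38.p14, each of 250 bases before and 50 after a start, and the bases before the start are printed for the gene with the highest peak (CHAC1), the one with the largest changes (TRIB3, the first of 3 listed starts), the one whose start was listed under cystine restriction alone (GDF15) and one that holds a cyclic AMP response element (PPP1R15A). They lie on the plus strand at chr15:40953221-40953470, chr20:381045-381294, chr19:18385908-18386157 and chr19:48872171-48872420. Capitals mark matches on either strand to the C/EBP-ATF response element TGATGNAA, the cyclic AMP response element TGACGTCA, the AP-1 site TGANTCA, or TGACGT, the first letters of the cyclic AMP response element, which was added after the sequences were seen.
CHAC1: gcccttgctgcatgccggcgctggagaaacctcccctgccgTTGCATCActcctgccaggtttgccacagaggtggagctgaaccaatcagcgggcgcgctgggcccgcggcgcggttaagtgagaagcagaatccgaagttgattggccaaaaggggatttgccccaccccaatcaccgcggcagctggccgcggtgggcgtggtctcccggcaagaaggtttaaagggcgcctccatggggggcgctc
TRIB3: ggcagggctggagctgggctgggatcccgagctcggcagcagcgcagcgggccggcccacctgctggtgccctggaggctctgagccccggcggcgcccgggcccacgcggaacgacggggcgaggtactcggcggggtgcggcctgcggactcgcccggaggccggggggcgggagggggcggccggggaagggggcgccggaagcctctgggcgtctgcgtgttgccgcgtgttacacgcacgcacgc
GDF15: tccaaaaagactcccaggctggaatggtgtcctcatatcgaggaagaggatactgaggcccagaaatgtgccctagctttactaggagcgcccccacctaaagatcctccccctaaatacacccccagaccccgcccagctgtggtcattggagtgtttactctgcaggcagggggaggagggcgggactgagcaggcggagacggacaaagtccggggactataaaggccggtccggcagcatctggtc
PPP1R15A: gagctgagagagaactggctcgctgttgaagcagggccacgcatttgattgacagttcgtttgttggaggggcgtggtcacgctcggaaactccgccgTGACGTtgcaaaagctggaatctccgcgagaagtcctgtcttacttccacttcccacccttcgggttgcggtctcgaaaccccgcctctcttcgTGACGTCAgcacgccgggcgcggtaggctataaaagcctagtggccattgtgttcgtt
CHAC1 held the C/EBP-ATF element on the minus strand, 209 to 202 bases before the RefSeq start, and 3.62% of the 35116 promoters in the table held this motif. PPP1R15A held the cyclic AMP response element 58 to 51 bases before its start, present in 1.85% of promoters, and a second TGACGT 152 to 147 bases before it, letters found in 7.98%. The AP-1 letters, in 7.71% of promoters, matched none of the 6 genes, and TRIB3, SESN2, DDIT4 and GDF15 had no match to any of the 4 motifs in this window, at any listed start. A match describes letters and not a bound site, and the bases printed need not lie under a summit. By the hg19 starts, the summits of the start regions of TRIB3 and GDF15 lay after the start. Those of the DDIT4 start region lay 911 to 998 bp before it. At PPP1R15A the summits of the regions listed in all 4 libraries lay 661 bp or more after the start. The gene length in RefSeq differed by 0 to 96 bp from the hg19 span used for the peaks, so the starts used for sequence and for peaks need not be the same base. A difference in length does not limit how far apart the starts lie. Positions were not converted between the builds, so the bases printed may lie before or after the hg19 start. A missing match therefore does not describe the sequence at the hg19 start.

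Levels are given as the summit pileup, the number of tags stacked at the highest base of a peak, divided by the genome background, the pileup expected by chance over the whole genome. Both were worked out from the deposited fold enrichment and −log10 p. The genome background grows with the depth of a library. It stood at 1.3 and 1.08 tags for cystine-restricted libraries 1 and 2, against 1.11 and 1.32 tags for full-medium libraries 1 and 2, and no listed pileup was below 6 tags. Over all 10331 regions with a peak in each of the 4 libraries, the log2 difference between cystine restriction and full medium had a median of 0.53, so most regions were higher under cystine restriction. Where a region was called, its difference is therefore also given after each library was scaled by its median over those regions, which takes 0.57 off every difference.

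Cystine-restricted libraries 1 and 2 listed 28 and 22 of the 29 regions, and full-medium libraries 1 and 2 listed 19 and 17. The counts did not overlap, with means of 25 ± 4.24 and 18 ± 1.41 regions (SD, n = 2 each), a ratio of 1.39 beside 1.79 for regions over the whole series. By a two-sided exact permutation test p = 0.33, and a design of 2 libraries against 2 cannot go lower. Counted as single peaks, of which a region can hold several, the libraries had 30 and 23 under cystine restriction against 24 and 21 in full medium, and these did overlap (exact permutation p = 0.67). The ratio of peak numbers was 1.18, beside 1.73 for peaks over the whole series. The same peaks covered 21.7 and 18.3 kb under cystine restriction, against 12.7 and 12.4 kb in full medium (exact permutation p = 0.33). Their median width was 589 and 819 bp under cystine restriction and 407 and 455 bp in full medium, so they were broader in both cystine-restricted libraries. Over all peaks of each list the median width was 415 and 392 bp under cystine restriction and 377 and 376 bp in full medium. The direction was therefore the same over the whole series. The kb covered were not worked out over the whole series.

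Of the 29 regions, 16 had a peak in all 4 libraries (55.2%, against 23.0% of all regions), and each of the 6 genes had at least 1 of them. Another 4 were gained, meaning listed in both cystine-restricted and in neither full-medium library, which is 19.0% of the 21 regions found in both cystine-restricted libraries, against 27.6% over the whole series. Of all 29 they are 13.8%, against 12.7% of all regions, so both shares were near or below the background. Without cystine-restricted library 2 the gained regions numbered 8, since the 4 listed in cystine-restricted library 1 alone then counted as gained. Regions listed in that library alone were 13.8% of the 29, against 21.8% of all regions. None was lost, the reverse pattern, of the 16 found in both full-medium libraries, against 1.56% of such regions overall. No region was listed in full medium alone, and 0 of 29 allows a share of up to 10.3%, which is also the share over all regions. The remaining 9 comprised 5 listed in 1 library, all of them cystine-restricted, and 4 in other combinations. Regions listed in 1 library were 17.2% of the 29, against 46.4% of all regions. Over all regions, 21.8% and 14.6% were listed in cystine-restricted library 1 or 2 alone. In full-medium library 1 or 2 alone 4.08% and 5.89% were listed, so most regions in 1 library were cystine-restricted over the whole series too.

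**Figure D1:**
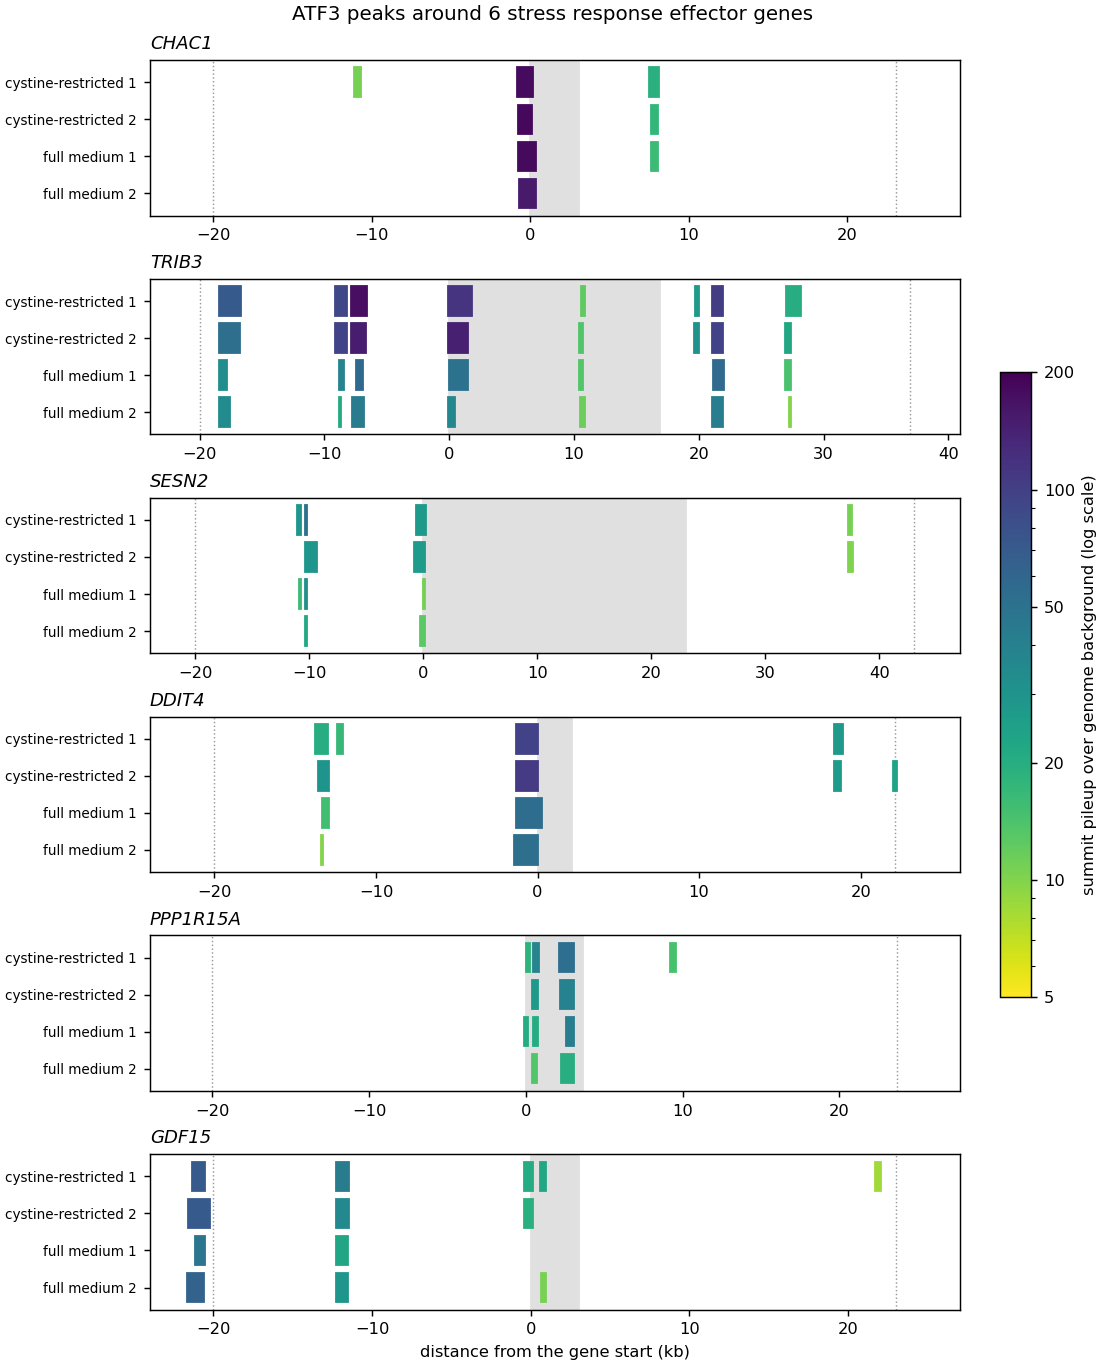
Peaks in each library around the 6 genes, by distance from the gene start in kb. Each bar is the highest peak of a region, drawn to scale and coloured by its summit pileup over genome background; grey is the gene and dotted lines end the 20 kb on either side. CHAC1 has 1 dark peak at its start in all 4 libraries, and most peaks at TRIB3 are darker and wider in the upper rows, which are the cystine-restricted libraries.

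At 12 of the 16 common regions the summit was higher under cystine restriction at an adjusted p under 0.05 (limma with Benjamini-Hochberg adjustment over all 10331 common regions), and at none was it lower. The background for this count is 43.2% of common regions higher and 0.407% lower. The median log2 difference of the 16 was 0.88, against 0.53 over all common regions. Of the 16, 7 lay in the window of TRIB3, so this median gives that gene the most weight. After median scaling 4 of the 16, all at TRIB3, were higher than the general shift, where 4.96% of all common regions were, and 1, at the start of CHAC1, was lower, where 4.28% were. At 12 of the 16 both cystine-restricted values lay above both full-medium values, as they did at 72.8% of all common regions. The calls depend on the libraries. Without cystine-restricted library 1, 7 of the 16 were higher, and the share over all common regions was then 18.1%. After median scaling no region of the 10331 passed without full-medium library 1 or without full-medium library 2, although 854 and 931 were higher and 804 and 778 lower at an unadjusted p under 0.05 by limma. With the deposited fold enrichment in place of the pileup, limma called none of the 16, against 4.96% of all common regions. At an unadjusted p under 0.05 by limma 4 of the 16 were higher with this fold, against 23.8% of all common regions, a share near the background.

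**Figure D2:**
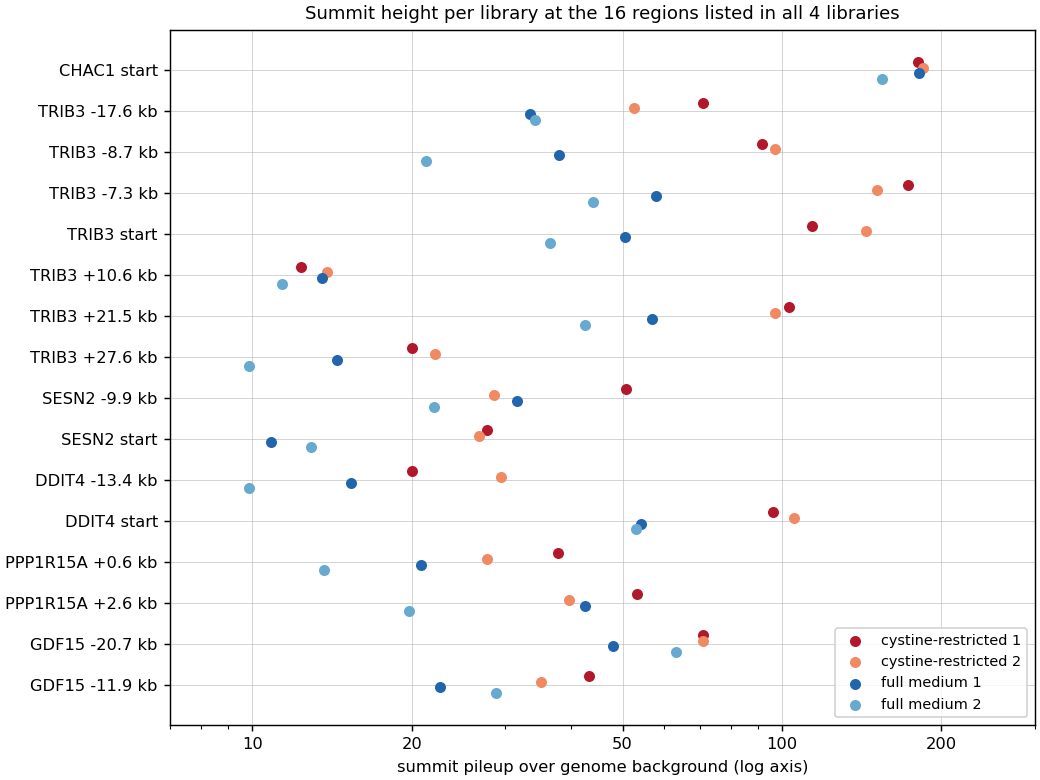
Summit pileup over genome background on a log axis in each of the 4 libraries, for the 16 regions listed in all of them, named by gene and by the distance of their middle from the gene start. Red points are cystine-restricted and blue ones full-medium libraries; they lie apart at TRIB3 except 10.6 kb into the gene and lie together at the start of CHAC1, between 155 and 185.

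CHAC1 carried the highest ATF3 peak of the 6 genes, and this peak was nearly as high in full medium as under cystine restriction. The protein is a gamma-glutamylcyclotransferase that splits glutathione, and its gene is a known target of ATF4. The region covered the gene start, on chromosome 15 from 41244817 to 41246021, with summits 185 to 202 bp before the start. The C/EBP-ATF element printed above lies 209 to 202 bases before the RefSeq start. Distances of summits and of the element are counted from starts on different builds. Whether the element lies under the summits was therefore not determined. The level was 180 and 185 times the genome background in cystine-restricted libraries 1 and 2, against 182 and 155 times in full-medium libraries 1 and 2. The groups overlapped. Among all peaks of a list it ranked 82 and 64 under cystine restriction and 48 and 55 in full medium. The ratio of cystine-restricted to full medium was 1.09 (95% interval 0.900 to 1.31), with a log2 difference of 0.12 ± 0.14 (SE, n = 2 each, limma adjusted p = 0.46).

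Relative to the general shift the start of CHAC1 was lower by a log2 difference of −0.45 ± 0.11 (SE, n = 2 each, limma adjusted p = 0.0027). Without cystine-restricted library 1 and full-medium libraries 1 and 2 in turn the adjusted p from limma was 0.072, 0.19 and 0.17 at differences of −0.40, −0.42 and −0.47, and without the intensity trend in limma it was 0.25. The local background, the tag density over the 10 kb around the summit, was 11 and 10.4 times the genome background under cystine restriction and 12.1 and 10.6 times in full medium. A weaker region downstream, on chromosome 15 from 41253111 to 41253741, was listed at 19.3 and 17.5 times the background under cystine restriction and at 16.3 times in full-medium library 1. In full-medium library 2 it was not listed. The third region, 10.9 kb before the start, was listed in cystine-restricted library 1 alone, with 14 tags.

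TRIB3 showed the largest differences, at its start and in the regions 8.7 and 7.3 kb before it. TRIB3 is induced by ATF4 and in turn binds and restrains it, a feedback within the response. Of its 7 common regions 6 were higher under cystine restriction by limma, as were 43.2% of all common regions. After median scaling 4 of the 7 were higher, where 4.96% of all common regions were. The region at the gene start, on chromosome 20 from 361188 to 363150, had 114 and 144 times the genome background under cystine restriction, against 50.6 and 36.4 times in full medium. Both cystine-restricted values were more than double either full-medium value, and the ratio was 2.98 (95% interval 2.32 to 3.83), a log2 difference of 1.58 ± 0.18 (SE, n = 2 each, limma adjusted p = 3.7e-09). The summits lay 55 to 321 bp after the hg19 start.

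A pair of neighbouring regions upstream, singled out after their values were seen, moved in the same way. The one from 353415 to 354679 had its summit 7020 bp before the start in each of the 4 libraries, at 173 and 151 times the background under cystine restriction and 57.8 and 44.0 times in full medium. Its ratio was 3.21 (95% interval 2.55 to 4.05, limma adjusted p = 7.0e-11). The one from 352117 to 353124 had 91.7 and 96.9 times the background under cystine restriction and 38.0 and 21.2 times in full medium, with a ratio of 3.32 (95% interval 2.48 to 4.44, limma adjusted p = 1.4e-08). The log2 differences of these and of the start region, 1.68, 1.73 and 1.58, were at the 99.2, 99.4 and 98.8 percentiles of all common regions. After median scaling they were 1.11, 1.16 and 1.01, with limma adjusted p of 2.5e-08, 5.8e-06 and 3.4e-06. These 3 adjusted p became 0.075, 0.075 and 0.13 without full-medium library 1, at differences of 1.22, 1.49 and 1.15. They became 0.11, 0.14 and 0.20 without full-medium library 2, at differences of 1.01, 0.84 and 0.86. With all 4 libraries but without the intensity trend in limma, the adjusted p after median scaling were 0.029, 0.039 and 0.045, in the same order. For the differences before median scaling the limma adjusted p without the trend were 0.00086, 0.00137 and 0.00134. The much smaller values above thus rest on the intensity trend. Neighbouring regions share their surroundings and are not separate replicates.

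The TRIB3 region with the highest rank percentile averaged over the 4 libraries was downstream of the gene, on chromosome 20 from 382363 to 383298, where RBCK1 is the neighbouring gene in RefSeq. It ranked 494 and 594 under cystine restriction, where the region with its summit 7020 bp before the start stood higher, at 236 and 318. In full medium it ranked 675 and 984 and the upstream region 1065 and 1426. It had 103 and 96.9 times the background under cystine restriction and 56.9 and 42.5 times in full medium, with a ratio of 2.03 (95% interval 1.59 to 2.61, limma adjusted p = 1.6e-05). After median scaling its log2 difference was 0.46 (limma adjusted p = 0.044). That call was lost without the intensity trend (limma adjusted p = 0.25). It was also lost when any of the 4 libraries was left out, at log2 differences of 0.34 to 0.57. The region 17.6 kb before the start rose by a ratio of 1.81 and the one 27.6 kb after it by 1.76 (limma adjusted p = 0.0010 and 0.022), with log2 differences of 0.85 and 0.82, or 0.29 and 0.25 after median scaling (limma adjusted p = 0.37 and 0.66). Without cystine-restricted library 1 the log2 differences were 0.64 and 0.89 and the limma adjusted p 0.11 and 0.081. The region 27.6 kb after the start also lost its call without cystine-restricted library 2 or full-medium library 2, at log2 differences of 0.75 and 0.54 (limma adjusted p = 0.12 and 0.20). The exception was the weak region inside the gene, from 371718 to 372190, with 12.3 and 13.8 times the background under cystine restriction against 13.6 and 11.4 times in full medium, where the groups overlapped (log2 difference 0.07 ± 0.29, SE, n = 2 each, limma adjusted p = 0.85). A gained region lay between, from 380942 to 381313, with 27.7 and 31.4 times the background under cystine restriction, or 36 and 34 tags. It lies among high peaks. The tags needed for it to be listed in full-medium libraries 1 and 2 would have been 25 and 28. This takes a local background in full medium as high, relative to the genome background, as under cystine restriction. At the neighbouring region from 382363 to 383298 the local background was 8.89 and 9.24 times the genome background under cystine restriction. In full medium it was 4.70 and 3.95 times there, and with a lower local background fewer tags would have sufficed.

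The tag density around the TRIB3 peaks was higher as well. In the 10 kb around the summit 7020 bp before the start the local background was 19.0 and 17.6 times the genome background under cystine restriction and 7.39 and 5.96 times in full medium, a ratio of 2.76 at the 99.8 percentile of common regions. These 10 kb include the tags of the peaks themselves. The fold enrichment in the deposited lists divides by this local background, and there the same region stood at 8.81 and 8.20 under cystine restriction and 7.08 and 6.66 in full medium (log2 difference 0.31, limma adjusted p = 0.29). Over all common regions the local background had a median log2 difference of 0.37, and over the 16 regions 0.73.

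**Figure D3:**
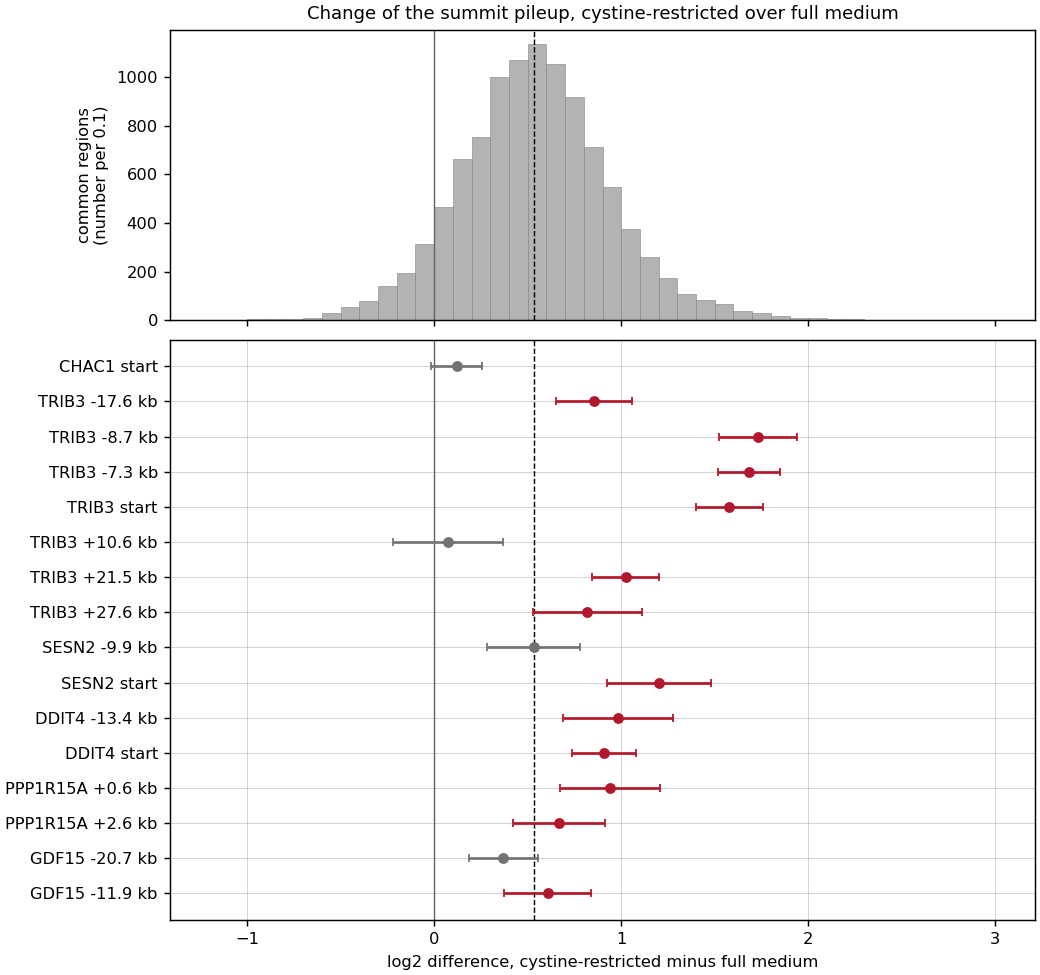
Change of the summit pileup as the log2 difference, cystine-restricted minus full medium. The upper panel counts all 10331 common regions in bins of 0.1; the lower shows the 16 regions with their SE from limma, red where the adjusted p is under 0.05 and grey where it is not. The dashed line is the median of all common regions, 0.53; the start of CHAC1 lies left of it at 0.12 and 3 TRIB3 regions lie right of 1.5.

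SESN2 had a modest start region that was more than double under cystine restriction. Sestrin 2 binds leucine and holds back mTORC1 when amino acids are scarce. The region covered the start, on chromosome 1 from 28585171 to 28586152, with 27.7 and 26.8 times the background under cystine restriction and 10.8 and 12.9 times in full medium. The groups were well apart relative to the spread within each, and the ratio was 2.30 (95% interval 1.56 to 3.40, limma adjusted p = 0.00072). It was listed as 832 and 963 bp wide under cystine restriction, against 178 and 391 bp in full medium. After median scaling the log2 difference was 0.64 ± 0.27 (SE, n = 2 each, limma adjusted p = 0.13).

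The strongest SESN2 region was upstream, from 28575545 to 28576674, with 50.9 and 28.6 times the background under cystine restriction and 31.6 and 22 times in full medium. Cystine-restricted library 2 fell between the full-medium libraries, and the difference did not pass (ratio 1.45, 95% interval 1.02 to 2.04, limma adjusted p = 0.074). Without cystine-restricted library 2 or full-medium library 1 it did, at log2 differences of 0.95 and 0.79 against 0.53 (limma adjusted p = 0.018 and 0.0074). A gained region lay far downstream, from 28623196 to 28623635, at 10.8 and 10.1 times the background, or 14 and 11 tags, where 7 tags would have sufficed in either full-medium library by the same reckoning of the local background as at TRIB3. The fourth region was listed in cystine-restricted library 1 and full-medium library 1, at 29.3 and 16.3 times the background.

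DDIT4, also called REDD1, encodes an inhibitor of mTORC1 that is raised by hypoxia, DNA damage and amino acid shortage. Its strongest region reached from 1458 bp before the start to 258 bp after it, on chromosome 10 from 74032219 to 74033935, and its summits lay 911 to 998 bp before the start. It had 96.3 and 105 times the background under cystine restriction and 54.2 and 53.1 times in full medium. The 2 libraries of each medium were close to each other and the media far apart, with a ratio of 1.88 (95% interval 1.48 to 2.38, limma adjusted p = 5.6e-05). Without the intensity trend the limma adjusted p was 0.0105. The antisense gene DDIT4-AS1 is a neighbour in RefSeq, and the peaks carry no strand. After median scaling the log2 difference was 0.34 ± 0.15 (SE, n = 2 each, limma adjusted p = 0.15).

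Further upstream of DDIT4, 13.4 kb before the start, a weaker region had 20 and 29.5 times the background under cystine restriction and 15.4 and 9.86 times in full medium (ratio 1.98, log2 difference 0.98, limma adjusted p = 0.0070). Without cystine-restricted library 2 or full-medium library 2 the log2 difference was 0.70 and 0.66 (limma adjusted p = 0.14 and 0.097), and after median scaling it was 0.41 (limma adjusted p = 0.40). A gained region lay downstream, from 74052028 to 74052614, with 27.7 and 26.8 times the background, or 36 and 29 tags. If its local background in full medium was, relative to the genome background, no higher than the highest one under cystine restriction, 15 and 16 tags would have sufficed for it to be listed in full-medium libraries 1 and 2. The other 2 regions were listed in cystine-restricted library 1 alone and in cystine-restricted library 2 alone, with 22 and 25 tags.

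At PPP1R15A, also called GADD34, which ends the response by directing the dephosphorylation of eIF2, the regions listed in all 4 libraries lay inside the gene and not at its start. The strongest region lay from 49377777 to 49378729 on chromosome 19, with summits 2939 to 2986 bp after the start. It had 53.2 and 39.7 times the background under cystine restriction and 42.5 and 19.7 times in full medium. The groups overlapped, since full-medium library 1 was above cystine-restricted library 2, and the ratio of 1.59 (95% interval 1.13 to 2.24, limma adjusted p = 0.027) rested on single libraries. The adjusted p was 0.29 without cystine-restricted library 1 and 0.73 without full-medium library 2, with log2 differences of 0.45 and 0.11 against 0.67. After median scaling the log2 difference was 0.097 (limma adjusted p = 0.85).

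A second region inside PPP1R15A, from 49376029 to 49376458, had 37.8 and 27.7 times the background under cystine restriction and 20.8 and 13.7 times in full medium, without overlap (ratio 1.92, 95% interval 1.32 to 2.78, limma adjusted p = 0.0046). Without cystine-restricted library 1 or full-medium library 2 the log2 difference was 0.72 and 0.64 against 0.94 (limma adjusted p = 0.14 and 0.069), and after median scaling it was 0.37 (limma adjusted p = 0.39). The region at the start itself, from 49375549 to 49375901 was listed in cystine-restricted library 1 and full-medium library 1 only, at 18.5 and 20.8 times the background. It was among the weakest peaks of those lists, at the 2.98 and 16.2 percentiles of −log10 p. The fourth region, 9.4 kb after the start, was listed in cystine-restricted library 1 alone, with 19 tags.

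Of the 6 gene starts, that of GDF15 alone had the gained pattern. GDF15 is a secreted member of the TGF-beta superfamily that acts on the brainstem to lower appetite and rises in blood under many cell stresses. The start region, on chromosome 19 from 18496528 to 18497125, had 20.8 and 19.4 times the background in cystine-restricted libraries 1 and 2, or 27 tags (95% Poisson interval 17.8 to 39.3, counting error only) and 21 tags (13.0 to 32.1). Its summits lay 46 and 57 bp after the start. Neither full-medium library listed it. If the local background in full medium was, relative to the genome background, no higher than the highest one under cystine restriction, 12 and 13 tags would have been enough for it to be listed in full-medium libraries 1 and 2. A region just inside the gene, from 18497528 to 18497954, was listed in cystine-restricted library 1 at 22.3 times the background and in full-medium library 2 at 10.6 times.

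The higher GDF15 regions were distant from the start. The strongest, from 18475341 to 18477181, reached into the window from its upstream end, where PGPEP1 is the neighbouring gene in RefSeq. It had 70.9 and 71.0 times the background under cystine restriction and 47.9 and 63.0 times in full medium, with a ratio of 1.29 (95% interval 1.00 to 1.67, limma adjusted p = 0.094). The groups did not overlap but were close, and without full-medium library 2 the log2 difference was 0.57 against 0.37 (limma adjusted p = 0.018). The region from 18484687 to 18485526 had 43.1 and 35.1 times the background under cystine restriction and 22.6 and 28.8 times in full medium (ratio 1.52, 95% interval 1.10 to 2.11, limma adjusted p = 0.031). Its call was lost without cystine-restricted library 1 or 2 or full-medium library 1, at log2 differences of 0.46, 0.76 and 0.43 against 0.61 (limma adjusted p = 0.30, 0.063 and 0.13). After median scaling its log2 difference was 0.039 (limma adjusted p = 0.94). The fifth region, 21.9 kb after the start, was listed in cystine-restricted library 1 alone, with 11 tags.

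**Figure D4:**
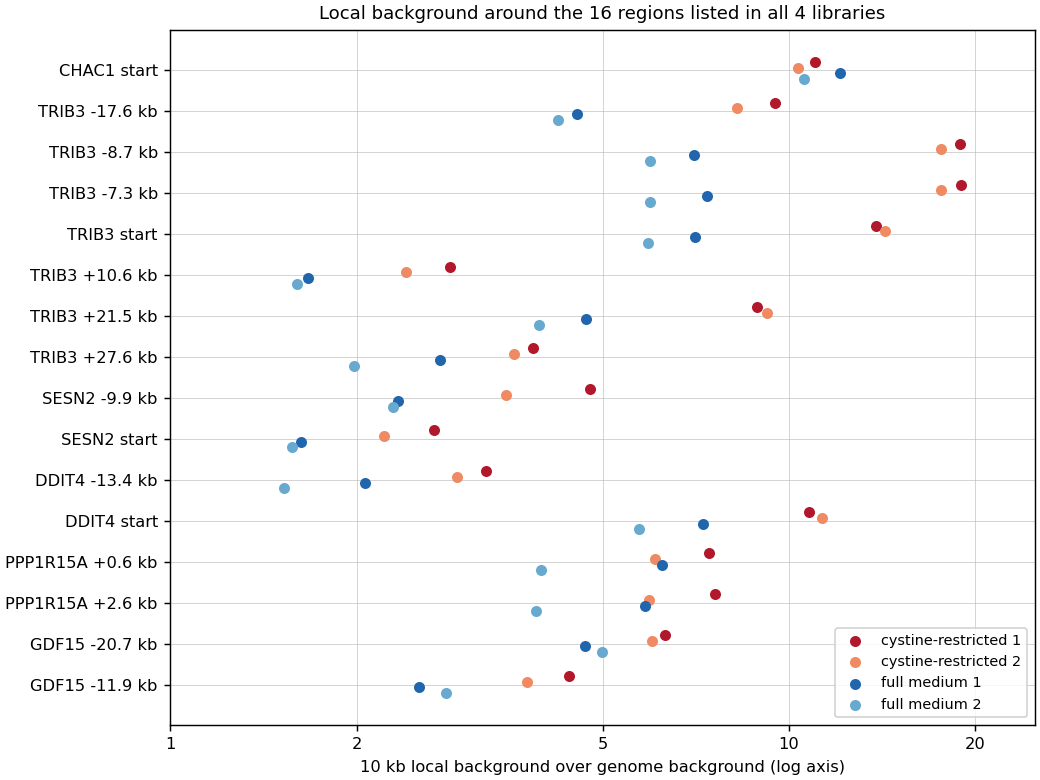
Tag density over the 10 kb around each of the 16 regions, as local over genome background on a log axis, in each of the 4 libraries. Red points are cystine-restricted and blue ones full-medium libraries; the regions 8.7 and 7.3 kb before TRIB3 stand at 17.6 to 19.0 under cystine restriction and at 5.96 to 7.39 in full medium, and CHAC1 shows no such distance.

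The 6 genes thus differed in height and in change. By the highest level in their windows under cystine restriction the order was CHAC1, TRIB3, DDIT4, GDF15, PPP1R15A and SESN2, with means of 182 ± 2.97, 162 ± 15.6, 100.7 ± 6.26, 71.0 ± 0.103, 46.4 ± 9.54 and 39.7 ± 15.7 times the background (SD, n = 2 each). In full medium the same regions had 168 ± 19.0, 50.9 ± 9.79, 53.7 ± 0.793, 55.4 ± 10.7, 31.1 ± 16.1 and 26.8 ± 6.81 times (SD, n = 2 each). Under cystine restriction the libraries of PPP1R15A and SESN2 overlapped, and those of the other neighbours in this order did not. In full medium TRIB3, DDIT4 and GDF15 overlapped with each other, as did PPP1R15A and SESN2. Other genes of the integrated stress response were not analysed here, since no gene positions of the build of the peaks were given for them.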

How the data were processed

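Each library came with 1 deposited narrowPeak list. The submitters' processing notes name bcl2fastq (2.17), fastp (0.19.7), BWA (0.7.17), MACS2 (2.2.7.1) and build hg19; their options were not stated. For each peak the authors deposited a fold enrichment (ratio of summit to local pileup), −log10 of the p-value and of the q-value, a score (10 times the latter) and the summit position.

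MACS2 computes the fold as (pileup + 1)/(background + 1). Solving it with the Poisson p gave whole-number pileups that matched within 0.1% for 100% of peaks. Peaks on chromosomes 1 to 22 and X were merged (44826 regions, the same number with bedtools 2.31.1), with the highest peak of a library standing for a region. limma 3.58.1 (R 4.3.3, intensity trend, no pseudocount) was fitted to log2 pileup over genome background at the 10331 regions listed in all 4 libraries. The steps were checked on simulated data. Python 3.11.15, numpy 2.4.6, scipy 1.17.1, pandas 2.3.3 and matplotlib 3.10.9 were used. Poisson intervals cover counting error only.

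At each gene the text describes the region at or nearest the start, the one with the highest mean rank percentile and every gained or lost region. The genes, lists and tests were chosen with earlier results of these data known. Alternatives were other thresholds, windows, overlaps, scalings and fits, and each library left out.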

Additional observations from a re-analysis of the deposited data

How the results depend on the processing

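Equal numbers of top peaks per library gave a ratio of peak numbers in the 6 windows of 0.978 in place of 1.18; it was 1.02 to 1.33 with 1 library left out and 1.17 for same-numbered libraries (replicate block). The common regions numbered 16, 8 with a reciprocal overlap of 50%. The gained regions numbered 4, with 7 by reciprocal overlap, 2 and 8 with 10 and 50 kb on each side, and 4 to 8 with 1 library left out. Lost regions numbered 0, with 1 at a −log10 q of 5 or more, 1 with equal numbers and 2 by reciprocal overlap. For these alternative counts of common, gained and lost regions the shares over all regions were not worked out. They are therefore not read as a result about the 6 genes. By limma, 12 of 16 regions were higher (43.2% of all common regions), with 7 to 12 when 1 library was left out (18.1% to 47.6% of all), 13 with the replicate block (44.3% of all), which added the upstream SESN2 region (adjusted p = 0.043), and 4 with median scaling (4.96% of all), where 1 was lower and the median was 0.31. Without the intensity trend 10 were higher (37.2% of all). The GDF15 region 11.9 kb before the start and the strongest PPP1R15A region then lost their calls (limma adjusted p = 0.061 and 0.11). The deposited fold gave 0 higher (4.96% of all) and a median of 0.21. After median scaling the counts were 4 higher and 1 lower and the replicate block changed no call. The number higher was 0 with the fold and 0 to 3 with 1 library left out; the number lower was 0 to 1 with 1 library left out, and 0 without the trend, with the fold and without the 1% of regions with the highest fold, which takes out CHAC1 itself. Over all common regions the counts were 177 higher and 124 lower without the trend and 0 to 261 and 0 to 257 with 1 library left out. With the fold after median scaling, 34 of all common regions were higher and 24 lower (0.329% and 0.232%). Without the trend after median scaling, 3 of the 16 were higher, where 1.71% of all common regions were. The median after median scaling was 0.31, and −0.057 with the fold. Same-numbered libraries of the 2 media did not deviate together (correlation 0.01 over 10331 regions). A correlation cannot settle whether they were prepared together, which the labels do not say.

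Signs turned as follows. For the plain difference, median scaling gave −0.037 at the upstream SESN2 region, −0.45 at the CHAC1 start, −0.20 at the most distant GDF15 region and −0.50 inside TRIB3. The fold gave −0.13 at the upstream SESN2 region, −0.058 at TRIB3 17.6 kb before the start and −0.42 inside TRIB3. With 1 library left out the value inside TRIB3 was −0.054 to 0.20, below 0 without cystine-restricted replicate 2 (−0.011) or full-medium replicate 2. After median scaling the fold gave −0.073 at the DDIT4 start, −0.17 at GDF15 11.9 kb before the start, −0.045 at the strongest PPP1R15A region, and −0.32, −0.20 and −0.021 at TRIB3 17.6 kb before and 21.5 and 27.6 kb after the start. With 1 library left out these values were −0.42 to 0.35 at the upstream SESN2 region, −0.49 to 0.091 at the most distant GDF15 region, −0.23 to 0.31 at the nearer one (−0.029 at a −log10 q of 5 or more) and −0.36 to 0.56 at the strongest PPP1R15A region. The fold divides by a local background, which includes the tags of the peak. Why the signs turned was not tested. With 1 library left out, limma takes the lone library of a medium to vary like the others. Depth limits the weakest regions, as 6 or 7 tags were the lowest listed pileups.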
